A study of Mus musculus with 6 samples.

Results

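Npas4 encodes a neuronal transcription factor that is switched on by activity. It was described here together with 4 genes of the same protein family, Arnt, Arnt2, Npas1 and Npas3. The 5 genes were chosen by symbol, and all 5 were among the 21553 genes with values. RNA was sequenced from hippocampal neurons of C57bl/6 mice, taken at E16.5, before birth, and grown for 10 days in culture. The groups were untreated neurons, neurons kept in 55 mM KCl for 0.5 h and neurons kept in 55 mM KCl for 3 h, with 2 libraries each. Raised KCl depolarises neurons and opens their voltage-gated calcium channels, so the treatment stands in for synaptic activity without being it. The labels name no genetic change in any group. The cultures are mixed, since markers of neurons and of astrocytes were both well detected, as were some of the oligodendrocyte lineage.

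Proteins of the bHLH-PAS family (basic helix-loop-helix, Per-Arnt-Sim) bind DNA as pairs. A regulated or cell-type specific member (NPAS4, NPAS1, NPAS3, the hypoxia-inducible factors, the dioxin receptor AHR, CLOCK) joins a general partner, which is ARNT, ARNT2 or the clock protein ARNTL (also called BMAL1). In neurons NPAS4 is made after calcium entry and pairs with ARNT or with ARNT2, the form enriched in brain. NPAS1 and NPAS3 are close relatives of each other, known from interneuron development and neurogenesis and described mostly as repressors.

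The promoter of Npas4 is shown first, with those of its partner Arnt and of Plk2 and Bdnf, both described as targets of NPAS4. Each window runs from 250 bases before to 50 bases after a RefSeq transcription start (build GRCm38.p6) and is read 5′ to 3′ on the strand of the gene. In Npas4 and Arnt, capitals mark the letters TGACGTC on either strand, which make up most of a cAMP response element (CRE), and in Npas4 also TATATAA. In Bdnf and Plk2, capitals mark the CRE core TGACG and the core TCGTG, the site described for NPAS4 paired with ARNT, on either strand. Adjacent or overlapping matches run together.
Npas4, chr19:4989922-4990221, minus strand: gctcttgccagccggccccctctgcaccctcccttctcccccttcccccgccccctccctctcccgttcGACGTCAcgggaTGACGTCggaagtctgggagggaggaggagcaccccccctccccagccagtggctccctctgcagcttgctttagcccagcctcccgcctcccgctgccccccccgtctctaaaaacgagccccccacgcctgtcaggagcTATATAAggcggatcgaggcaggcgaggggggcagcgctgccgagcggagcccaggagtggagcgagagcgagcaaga
Arnt, chr3:95434140-95434439, plus strand: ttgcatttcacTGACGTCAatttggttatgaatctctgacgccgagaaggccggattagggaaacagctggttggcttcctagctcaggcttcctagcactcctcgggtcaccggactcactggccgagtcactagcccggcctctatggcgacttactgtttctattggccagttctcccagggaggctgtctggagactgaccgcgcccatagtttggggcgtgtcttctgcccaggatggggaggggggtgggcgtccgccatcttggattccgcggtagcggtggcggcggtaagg
Bdnf, window 3 of 7, chr2:109692186-109692485, plus strand: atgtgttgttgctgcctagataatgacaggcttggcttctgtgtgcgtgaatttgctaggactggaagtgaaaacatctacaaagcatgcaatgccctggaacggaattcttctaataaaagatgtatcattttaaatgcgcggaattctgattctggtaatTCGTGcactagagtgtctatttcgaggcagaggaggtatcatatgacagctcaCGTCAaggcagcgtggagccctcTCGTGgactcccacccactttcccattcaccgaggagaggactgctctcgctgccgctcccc
Plk2, chr13:110394794-110395093, plus strand: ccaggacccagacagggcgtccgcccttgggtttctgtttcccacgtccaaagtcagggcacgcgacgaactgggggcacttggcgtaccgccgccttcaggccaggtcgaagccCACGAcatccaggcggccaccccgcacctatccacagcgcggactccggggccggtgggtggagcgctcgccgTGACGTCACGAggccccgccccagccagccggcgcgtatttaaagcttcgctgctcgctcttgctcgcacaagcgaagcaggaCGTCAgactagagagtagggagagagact
The Npas4 window holds 2 sites of TGACGTC, beginning at positions −181 and −169 from the start, and TATATAA at −28. Of 32841 such windows over all genes, 3.21% hold TGACGTC and 3.24% hold TATATAA. The Arnt window holds TGACGTCA, the whole palindrome, which 1.79% of windows hold; its 2 matches to TGACGTC are the overlapping strands of this single element. The windows of Arnt2, Npas1 and Npas3 hold no TGACG, which 20.8% of windows hold. The core TCGTG, present in 16% of windows, occurs in that of Plk2, in 3 of the 7 windows of Bdnf and, among the 5 family genes, in that of Npas1. The windows of Mdm2 and Syt10, also described as targets, do not hold it, and Nptx2, another described target, had no window to search. Among other PAS genes TCGTG occurs in the windows of Npas2, Arntl2 and Per3, in 3 of 3 windows of Clock and in 1 of 2 windows of Per1. No window was available for Epas1, Ahr, Sim2, Ncoa2, Ncoa3 and Per2. The Bdnf window shown was chosen because it is the gene's only window with both TCGTG and TGACG. These matches describe the letters in the windows and do not show that a factor binds there.

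Npas4 (ENSMUSG00000045903, chromosome 19) had the largest response of the 5 by far. Levels are given as cRPKM, the authors' measure of read density, which corrects for gene length and sequencing depth. The level was 4.84 and 4.55 cRPKM in the untreated libraries, 111 and 101 cRPKM after 0.5 h of KCl, and 231 and 120 cRPKM after 3 h. Every treated library lay far above both untreated ones, and the 2 libraries at 3 h differed 1.93-fold from each other while those of the other groups differed 1.06-fold and 1.1-fold. These values rest on 37697 to 104606 counts per treated library and on 2215 and 1957 counts in the untreated ones.

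After 0.5 h, Npas4 was 22.3-fold above untreated neurons, a log2 fold change of 4.48 ± 0.37 (SE). The adjusted p was 0.054 in edgeR's quasi-likelihood test with Benjamini-Hochberg adjustment, so it did not pass the threshold of 0.05. With replicate number as a block, a fit that called 0.0818% of all genes, it was 0.03 and passed. The fold change was the third largest of 15895 genes tested. Over 15 alternative settings the adjusted p ran from 2.5e-40 to 0.45 and 9 of them called the gene, with a log2 change of 4.23 to 4.56 throughout. None of the other 4 genes passed. This comparison called 0.0377% of all genes.

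After 3 h, Npas4 rose to 176 ± 79 cRPKM, against 4.70 ± 0.21 cRPKM in untreated neurons (SD, n = 2 each), a log2 fold change of 5.29 ± 0.39 (adjusted p = 0.0046, edgeR). It passed in 14 of 15 alternatives and missed the threshold without untreated replicate 2 (adjusted p = 0.054, edgeR). Npas4 also stood much higher in order of level after KCl. Of the tested genes, 39.8% had a lower level than Npas4 in untreated neurons, 96.3% did so at 0.5 h and 97.9% at 3 h. The 3 h libraries both lay above the 0.5 h ones, without passing the test. The log2 value for 3 h against 0.5 h was 0.82 ± 0.32 (adjusted p = 0.16, edgeR, and 0.067 with the block, which called 31.2% of all genes there). It was 1.26 without 3 h replicate 2 (adjusted p = 0.021) and 0.21 without 3 h replicate 1 (adjusted p = 0.28). Over all 15 alternatives of this difference the adjusted p ran from 0.021 to 0.42.

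**Figure D1:**
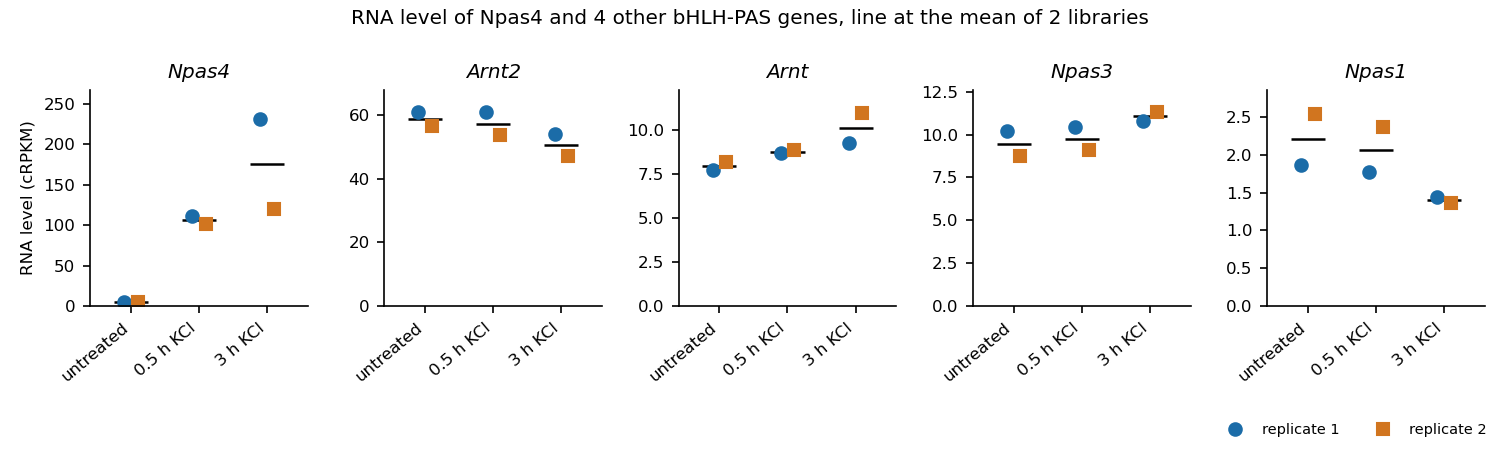
RNA level in cRPKM (vertical axes, starting at 0 and scaled per gene) of the 5 bHLH-PAS genes in untreated neurons and after 0.5 h and 3 h of KCl. Circles are replicate 1, squares replicate 2 and lines the mean of both. Npas4 stands at 4.84 and 4.55 cRPKM in untreated libraries and above 100 in all treated ones, while the levels of the other 4 genes stay within a narrow range.

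Arnt2 (ENSMUSG00000015709, chromosome 7), the brain-enriched partner, was the most abundant of the 5 in untreated neurons. Its level was 61.1 and 56.7 cRPKM in untreated libraries, 61.1 and 53.8 cRPKM at 0.5 h, and 54.2 and 47.4 cRPKM at 3 h. The groups overlap at 0.5 h, and both 3 h libraries lie slightly below both untreated ones. Against untreated neurons the log2 value was −0.16 ± 0.15 at 3 h (adjusted p = 0.49, edgeR) and −0.06 ± 0.15 at 0.5 h (adjusted p = 1.0). An antisense gene, Gm30873, overlaps Arnt2 in the GENCODE M21 annotation, and a library kit that does not mark strand cannot tell its reads apart.

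Arnt (ENSMUSG00000015522, chromosome 3), the general partner of AHR and the hypoxia-inducible factors, was the other member that passed the test at 3 h. It had 7.74 and 8.19 cRPKM in untreated libraries, 8.69 and 8.84 cRPKM at 0.5 h, and 9.27 and 11 cRPKM at 3 h. No group overlaps another, and the steps are small. At 3 h Arnt was 1.32-fold above untreated neurons, a log2 fold change of 0.40 ± 0.10 (adjusted p = 0.047, edgeR). The call depended on the setting. Only 5 of 15 alternatives kept it, with adjusted p from 0.005 to 0.24, and scaling by library totals gave 0.35 ± 0.12 (adjusted p = 0.1). Of the 6 fits with a library left out, the one without 3 h replicate 1 kept the call. Thus 2 of 5 genes were called at 3 h, both higher, in a comparison that called 15.6% of all genes, 8.71% higher and 6.84% lower. The fit with the block called the same 2 and 37.2% of all genes. The median log2 change of the 5 was 0.28, and that of all genes tested was −0.02.

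The partners were therefore compared with Npas4 within each library. In untreated libraries the Npas4 level was 0.0703 and 0.0701 times the summed level of Arnt and Arnt2. At 0.5 h it was 1.6 and 1.61 times that sum, and at 3 h 3.65 and 2.06 times. The sum itself averaged 66.9 ± 2.8 cRPKM without KCl, 66.2 ± 5.0 cRPKM after 0.5 h and 60.9 ± 3.6 cRPKM after 3 h (SD, n = 2 each). Npas4 RNA thus exceeded the RNA of both partners together in all 4 treated libraries and was below it in both untreated ones. Arnt2 made up 88.8% and 87.4% of the partner sum in untreated libraries, 87.5% and 85.9% at 0.5 h, and 85.4% and 81.1% at 3 h. The ratio of Arnt2 to Arnt averaged 7.41 ± 0.69 without KCl, 6.55 ± 0.67 after 0.5 h and 5.07 ± 1.1 after 3 h (SD, n = 2 each). These ratios are of RNA levels, no protein was measured, and the ratios were not tested.

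**Figure D2:**
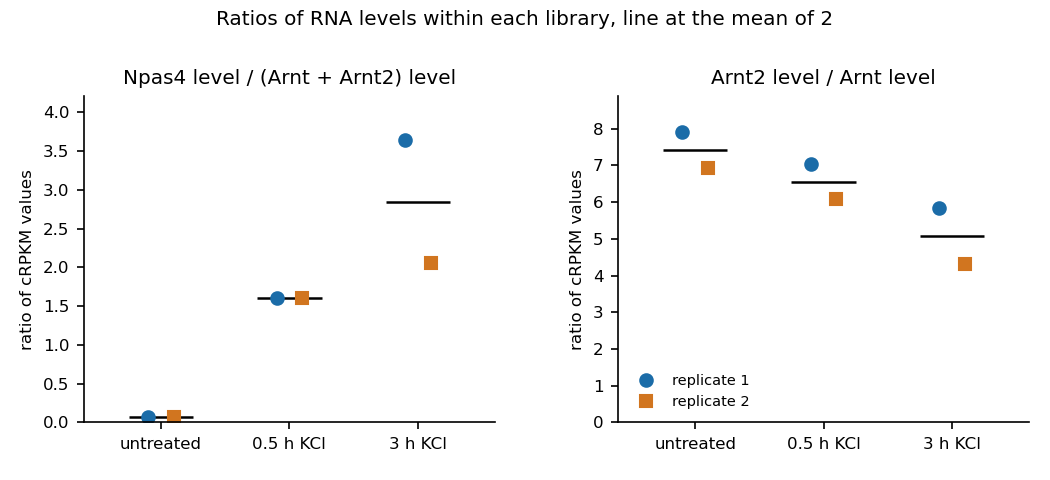
Ratios of cRPKM values within each library (vertical axes, starting at 0). At left, the Npas4 level over the summed Arnt and Arnt2 level is 0.0703 and 0.0701 in untreated libraries, near 1.6 at 0.5 h and 3.65 and 2.06 at 3 h. At right, the Arnt2 level over the Arnt level has means of 7.41, 6.55 and 5.07 in untreated, 0.5 h and 3 h libraries. Circles are replicate 1, squares replicate 2 and lines the mean of both.

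Npas1 (ENSMUSG00000001988, chromosome 7) was the least abundant gene of the 5 in untreated neurons and did not pass the test. It had 1.87 and 2.54 cRPKM in untreated libraries, 1.77 and 2.37 cRPKM at 0.5 h, and 1.44 and 1.36 cRPKM at 3 h, from 274 to 691 counts per library. Both 3 h libraries lie below all the others, while untreated and 0.5 h libraries overlap. The log2 difference at 3 h was −0.60 ± 0.23 (adjusted p = 0.13 in edgeR, 0.057 with the block). It ran from −0.80 without untreated replicate 1 to −0.37 without untreated replicate 2.

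Npas1 is a gene of interneuron lineages, and the markers of those cells are given beside it. The summed level of 12 interneuron markers (Gad1, Gad2, Slc32a1, Dlx1, Dlx2, Dlx5, Dlx6, Lhx6, Sst, Npy, Pvalb and Vip) was 359 and 579 cRPKM in untreated libraries, 346 and 560 at 0.5 h, and 271 and 375 at 3 h. This sum, mostly Sst and Gad1, was higher in replicate 2 of all groups, while Dlx1 and Dlx2 were higher in replicate 1 of all groups. Npas1 was higher in replicate 2 of the untreated and 0.5 h libraries but not at 3 h. None of the 12 was called at 3 h in edgeR, beside 15.6% of all genes. Their median log2 change was −0.50, against −0.02 over all genes. At an unadjusted p under 0.05, 1 was higher and 2 were lower, while the block fit, which called 37.2% of all genes at 3 h, called 1 higher and 6 lower. Lhx6, a factor of interneuron development, had the smallest adjusted p of the 12, with a log2 difference of −1.11 ± 0.31 (adjusted p = 0.064 in edgeR, 0.0024 with the block). Pvalb, the next, went the other way at 0.79 ± 0.28 (adjusted p = 0.11 in edgeR, 0.037 with the block). It had at most 0.71 cRPKM and 65 counts in any library. Slc32a1 followed at −1.07 ± 0.40 (adjusted p = 0.12 in edgeR, 0.0041 with the block) and Gad2 at −1.11 ± 0.59 (adjusted p = 0.24 in edgeR, 0.0026 with the block). The part of these cells in the value of Npas1 was not tested, and in bulk RNA fewer cells of a type and less RNA per cell cannot be told apart.

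Npas3 (ENSMUSG00000021010, chromosome 12) had 10.2 and 8.76 cRPKM in untreated libraries, 10.4 and 9.10 cRPKM at 0.5 h, and 10.8 and 11.3 cRPKM at 3 h. Both 3 h libraries are above the rest by a small margin. The log2 difference at 3 h was 0.28 ± 0.13 (adjusted p = 0.18 in edgeR and 0.05, still short of the threshold, with the block). It was 0.16 without untreated replicate 2 and 0.40 without untreated replicate 1. Npas3 is also known from astrocytes and progenitors. At 3 h their markers had median log2 changes of 0.39 over 8 genes and 0.37 over 7 genes, against −0.02 over all genes. In edgeR 0 of either list were called, beside 15.6% of all genes. At an unadjusted p under 0.05, 2 astrocyte markers were higher and 0 lower, and 1 progenitor marker was higher and 1 lower. These 2 progenitor markers were Pax6 at 0.64 ± 0.18 and Hes5 at −1.67 ± 0.62 (adjusted p = 0.067 and 0.12 in edgeR). The block fit called 4 of each higher, beside 37.2% of all genes in either direction. Npas3 was higher in replicate 1 of the untreated and 0.5 h libraries but not at 3 h. The summed level of the astrocyte markers was higher in replicate 2 of all groups, and that of the progenitor markers in replicate 1. The part of these cells in the value of Npas3 was not tested. The annotation places 2 antisense genes, 1700030L22Rik and 1700060O08Rik, within Npas3.

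The order of the levels changed with treatment. In untreated neurons Arnt2 led with 58.9 ± 3.1 cRPKM, followed by Npas3 with 9.48 ± 1.0, Arnt with 7.96 ± 0.32, Npas4 with 4.70 ± 0.21 and Npas1 with 2.21 ± 0.47 (SD, n = 2 each). At 0.5 h Npas4 stood first with 106 ± 7.5 cRPKM and Arnt2 followed with 57.4 ± 5.1. At 3 h the order was the same, with Npas4 at 176 ± 79 and Arnt2 at 50.8 ± 4.8. Npas3 and Arnt are neighbours throughout. Their libraries do not overlap in untreated neurons or at 0.5 h (9.77 ± 0.95 and 8.77 ± 0.11 cRPKM), while at 3 h they do (11.1 ± 0.37 and 10.1 ± 1.2).

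The libraries differed in ways that touch these values. They held 98882007 to 141865913 counts each, the fewest in 3 h replicate 2. The astrocyte gene Gfap had 22.4 and 307 cRPKM in the untreated libraries, and the summed level of 8 astrocyte markers was higher in replicate 2 of each group, ranging from 1020 to 1520 cRPKM in untreated libraries, 1030 to 1660 at 0.5 h and 1070 to 2190 at 3 h. The 7 pan-neuronal markers summed to 1990 to 2110 cRPKM in untreated libraries, 1880 to 2050 at 0.5 h and 1320 to 1770 at 3 h. Tubb3 had means of 530 cRPKM in untreated neurons and 206 at 3 h, while Nefl had 91.6 and 118. Map2, Snap25, Stmn2 and Nefl overlapped their untreated libraries at 3 h. Tubb3, Syt1 and Rbfox3 lay below theirs, and the share of all genes without overlap was not counted. In edgeR 0 of the 7 were called at 3 h, beside 15.6% of all genes, with Tubb3 at an adjusted p of 0.051. The block fit, which called 37.2% of all genes, called 0 higher and 2 lower, Tubb3 (adjusted p = 0.0031) and Syt1 (0.041). The 7 oligodendrocyte lineage markers summed to 204 to 294 cRPKM in untreated libraries, 196 to 255 at 0.5 h and 225 to 304 at 3 h. Olig1, most of this sum, and Olig2 were higher in replicate 1 of each group, and the other markers of the list in replicate 2. The 6 microglia markers together reached at most 1.31 cRPKM in any library, and the 5 endothelial markers at most 1.44. The labels call each pair biological duplicates without saying what was duplicated. The p-values rest on the spread within these pairs, estimated over the 3 groups together. The main fit leaves differences between replicate 1 and replicate 2 in that spread, and the fit with the block takes out those shared by the groups.

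Among the other 14 bHLH-PAS genes, 12 were expressed highly enough to be tested, and Sim1 and Sim2 were not. None was called at 0.5 h by edgeR with or without the block, DESeq2 or limma, and none had an unadjusted p under 0.05. In edgeR this comparison called 0.0377% of all genes, so the lack of calls says little about the family. At 3 h, 2 rose and 2 fell, with a median log2 change of 0.01, beside 15.6% of all genes called. The block fit, which called 37.2% of all genes, called 2 higher and 5 lower, since Ahr, Ahrr and Ncoa2 also passed. Arntl, the clock partner of CLOCK, rose to 16.1 ± 0.70 cRPKM at 3 h, against 9.45 ± 0.56 cRPKM in untreated neurons (SD, n = 2 each), by 0.82 ± 0.10 on the log2 scale. Clock had 14.2 and 17.8 cRPKM in the 3 h libraries, against 10.2 and 11.3 cRPKM in untreated libraries, and rose by 0.62 ± 0.11. Npas2, which can replace CLOCK as partner of ARNTL, went the other way, with 2.69 ± 0.18 cRPKM at 3 h and 4.54 ± 0.22 cRPKM in untreated neurons, a log2 change of −0.70 ± 0.10. The adjusted p in edgeR was 0.0096, 0.023 and 0.014 for the 3 genes. For each of them, both 3 h libraries lay outside the range of both untreated ones. With 2 libraries a group this can easily arise by order alone, and its share over all genes was not counted.

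Hif3a, a relative of the hypoxia-inducible factors described mainly as their inhibitor, had the largest fall in the family. It stood at 0.68 and 0.70 cRPKM in the 3 h libraries, against 2.42 and 3.35 cRPKM in untreated libraries, a log2 change of −2.00 ± 0.23 (adjusted p = 0.0088, edgeR). Hif1a, the oxygen-regulated partner of ARNT, had 25.9 ± 0.31 cRPKM at 3 h and 26.6 ± 2.3 cRPKM in untreated neurons, and its fitted log2 value, which uses another scaling of the libraries, was 0.01 ± 0.12 (adjusted p = 0.94). Ncoa1, Ncoa2 and Epas1, the other family genes of highest level, did not pass either (adjusted p = 0.99, 0.22 and 0.61; Ncoa2 had 0.045 with the block). Ahrr, the repressor of AHR, stood at −0.78 ± 0.24 (adjusted p = 0.078, and 0.011 with the block). Ahr itself, singled out with its values known, stood at −0.49 ± 0.14 (adjusted p = 0.073, and 0.038 with the block). The PAS genes Per1 and Per2, clock repressors without a DNA-binding domain, rose by 1.81 ± 0.20 and 1.26 ± 0.18, with adjusted p of 0.009 and 0.013 in edgeR. Both lost the call without untreated replicate 1 (adjusted p = 0.069 and 0.088) or untreated replicate 2 (0.067 and 0.093). Their relative Per3, singled out likewise, stood at −0.69 ± 0.35 (adjusted p = 0.22, and 0.0084 with the block).

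Without untreated replicate 1, Arntl, Clock and Npas2 lost their calls at 3 h, and without untreated replicate 2 Hif3a did too. Such fits keep a lone library in that group and called far fewer of all genes, so these losses say little about the 4. Without replicate 1 the log2 change was 0.90 for Arntl, 0.56 for Clock and −0.74 for Npas2. Without replicate 2 it was 0.75, 0.68 and −0.66, and −1.76 for Hif3a. The 4 kept their direction in all alternatives. Clock had an adjusted p of 0.051 and 0.056 in limma and 0.054 in a fit of the 2 groups alone, within a range of 3.5e-05 to 0.14, and lost its call also without either 0.5 h library. Npas2 had 0.051 in the fit of 2 groups and 0.05 without 0.5 h replicate 1, within a range of 4.3e-08 to 0.13.

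**Figure D3:**
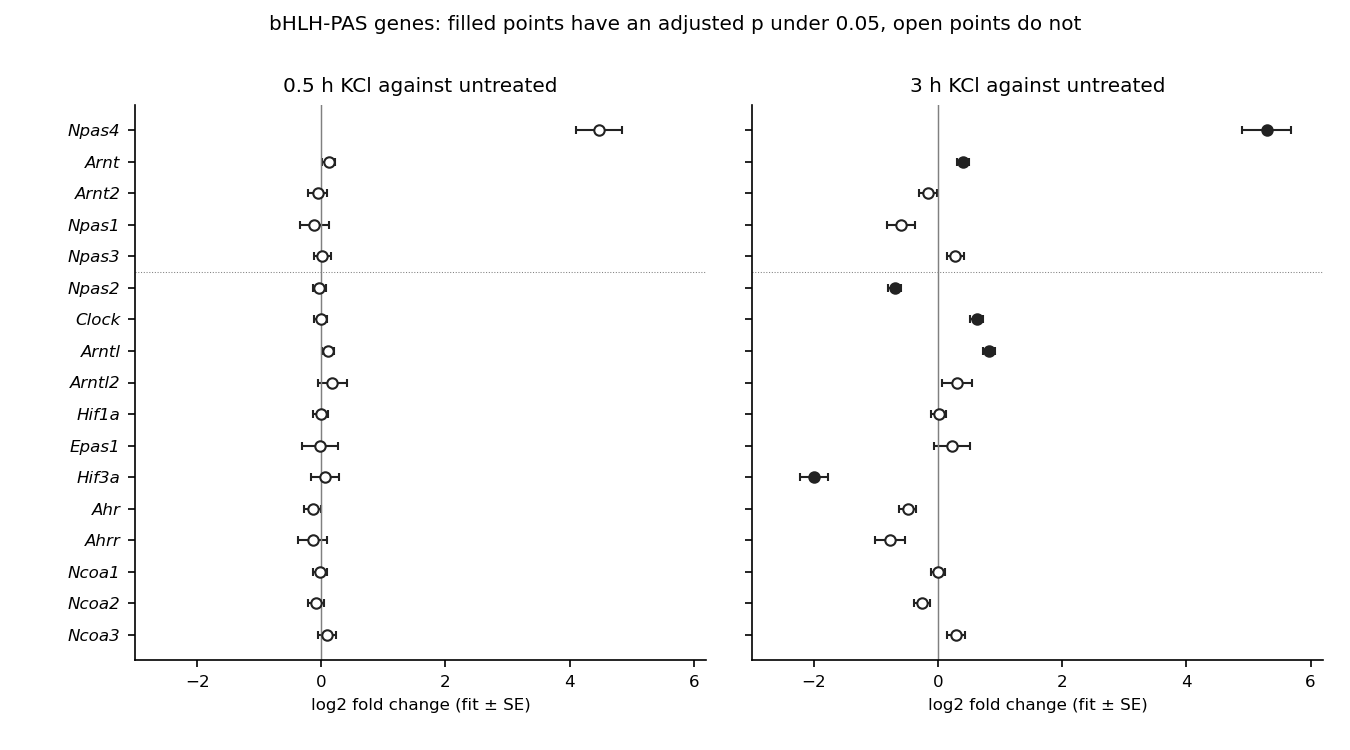
Log2 fold change with SE (horizontal axes) against untreated neurons at 0.5 h (left) and 3 h (right) for the 5 members (above the dotted line) and 12 other tested bHLH-PAS genes. Filled points have an edgeR adjusted p under 0.05. At 3 h the filled points are Npas4 at 5.29, Arnt at 0.40, Arntl at 0.82 and Clock at 0.62 on the right of 0, and Npas2 at −0.70 and Hif3a at −2.00 on its left.

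Of 5 genes described elsewhere as NPAS4 targets, none was called at 0.5 h and 4 of 5 rose at 3 h. Of all genes, 0.0377% were called at 0.5 h, and Npas4 itself was not, so the count of 0 says little about the targets. At 3 h 15.6% of all genes were called and 8.71% were called higher. At 0.5 h none had an unadjusted p under 0.05, and neither the fit with the block nor DESeq2 or limma called any. Bdnf, a neurotrophin, had 55.5 and 42.4 cRPKM in the 3 h libraries, against 7 and 11.7 cRPKM in untreated libraries. At 0.5 h it had 7.47 and 11.8 cRPKM, overlapping untreated neurons. Its log2 fold change at 3 h was 2.45 ± 0.34 (adjusted p = 0.013, edgeR).

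Nptx2, a synaptic pentraxin, had 6.55 and 6.92 cRPKM at 0.5 h, and 17.3 and 18.2 cRPKM in the 3 h libraries, against 6.67 and 7.19 cRPKM in untreated libraries. Plk2, a kinase of synaptic scaling, had 120 and 95.5 cRPKM in the 3 h libraries, against 43.2 and 38.8 cRPKM in untreated libraries, with 51.7 and 55.1 cRPKM at 0.5 h. Mdm2, a ubiquitin ligase, had 16.9 and 19.1 cRPKM in the 3 h libraries, against 12.73 and 11.98 cRPKM in untreated libraries. In none of these 3 do the 3 h and untreated libraries overlap, which 2 libraries a group can easily show by order alone. The share of all genes without such overlap was not counted. For Nptx2, Plk2 and Mdm2 the log2 fold changes were 1.41 ± 0.09, 1.46 ± 0.16 and 0.59 ± 0.09, with adjusted p of 0.0035, 0.0086 and 0.014 in edgeR. Syt10, a synaptotagmin gene, had 1.58 and 0.94 cRPKM in the 3 h libraries, against 2.02 and 2.12 cRPKM in untreated libraries, and did not pass (−0.65 ± 0.30, adjusted p = 0.19).

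The same 4 genes were also called higher at 3 h than at 0.5 h, by 0.48 to 2.44 on the log2 scale, where 11.3% of all genes were called, 6.39% higher and 4.87% lower, and the median of all genes was −0.03. The median of the 5 targets was 1.41 against untreated neurons and 1.1 against 0.5 h. Both comparisons share the 3 h libraries. Without either untreated library, Bdnf, Plk2 and Mdm2 lost their calls against untreated neurons. Without either 0.5 h library, all 4 lost those against 0.5 h, as did every other gene called there. Such fits keep a lone library in a group and called far fewer of all genes or none, so these losses say little about the targets. The 4 kept their direction in all alternatives. Rises of these genes do not show that NPAS4 caused them, since no sample lacks it.

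**Figure D4:**
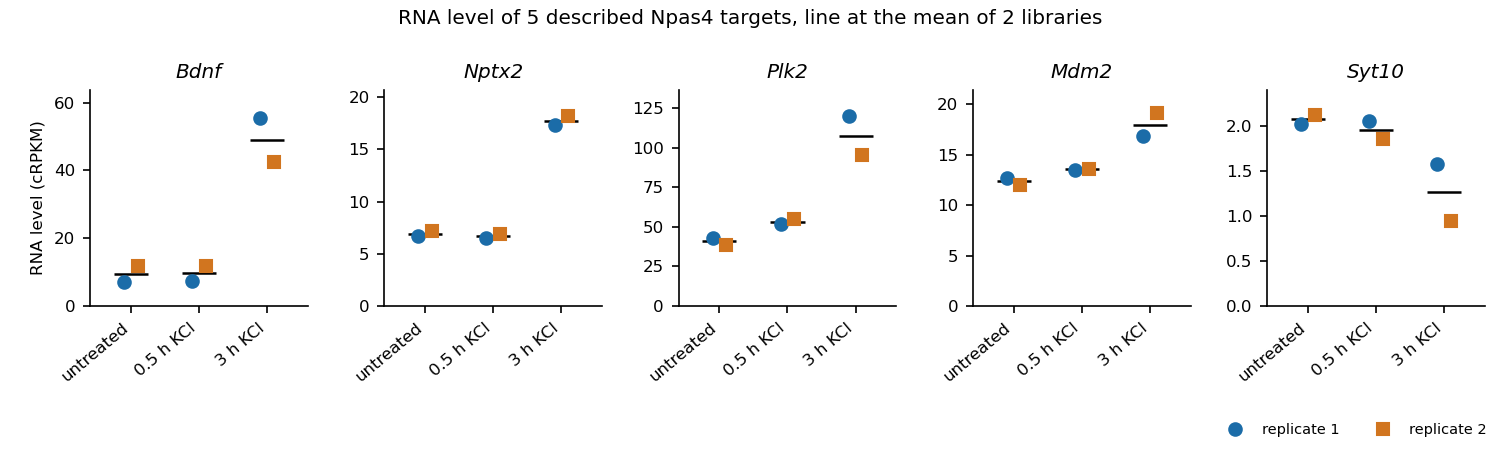
RNA level in cRPKM (vertical axes, starting at 0 and scaled per gene) of 5 genes described as NPAS4 targets in untreated neurons and after 0.5 h and 3 h of KCl. Circles are replicate 1, squares replicate 2 and lines the mean of both. Bdnf, Nptx2, Plk2 and Mdm2 are higher at 3 h than in every untreated library, and Syt10 is lower at 0.94 and 1.58 cRPKM without passing the test.

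The genes that answer to other ARNT pairs are read against the 15.6% of all genes called at 3 h, and 1 call in each list is no result about the list. Of 14 genes of the hypoxia response, 1 was called at 3 h, the glucose transporter gene Slc2a1, which had 21.3 ± 1.3 cRPKM at 3 h and 9.36 ± 2.3 cRPKM in untreated neurons (SD, n = 2 each; log2 change 1.24 ± 0.20, adjusted p = 0.019, edgeR). The median of the 14 was 0.04, and the fit with the block called 4 higher and 2 lower, beside 37.2% of all genes. The call of Slc2a1 was lost when untreated replicate 1 (adjusted p = 0.085), untreated replicate 2 (0.067) or 3 h replicate 2 (0.061) was left out. Egln3, an oxygen-sensing prolyl hydroxylase gene, stood at 1.32 ± 0.42 (adjusted p = 0.085, and 0.019 with the block). Of 6 genes of the AHR response, 5 were tested and 1 was called, Tiparp, an ADP-ribosyltransferase gene, which had 29.1 ± 2.5 cRPKM at 3 h and 7.99 ± 0.65 cRPKM in untreated neurons (1.92 ± 0.12, adjusted p = 0.0035). The classical AHR target Cyp1a1 had at most 0.29 cRPKM in any library. Tiparp kept its call in all 15 alternatives.

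Of 16 genes on the route from calcium entry to transcription, 2 rose and 1 fell at 3 h, a share near the 15.6% of all genes. None was called at 0.5 h, when 0.0377% of all genes were (1 was higher and 0 lower at an unadjusted p under 0.05; the block also called 0). Srf, the serum response factor gene, rose by 1.05 ± 0.13 on the log2 scale and Hdac4, a class IIa deacetylase gene, by 0.64 ± 0.12, while Crtc1, a coactivator of CREB, had a change of −0.62 ± 0.10. Their adjusted p was 0.01, 0.028 and 0.018 in edgeR. All 3 calls were lost when either untreated library was left out (adjusted p 0.075 to 0.14). Those of Hdac4 and Crtc1 were also lost without either 0.5 h library (0.05 to 0.058) and in a fit of the 2 groups alone (0.057 and 0.051), and that of Hdac4 without 3 h replicate 2 (0.073) and in limma (0.056 and 0.06). Mef2a, a calcium-regulated MADS-box factor, stood at −0.41 ± 0.12 (adjusted p = 0.081, and 0.018 with the block).

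Fos was the gene whose profile lay closest to that of Npas4. Likeness was measured as the root mean square difference of log2(cRPKM + 0.1) over 6 libraries, each gene set to its untreated mean, among 12176 genes with a symbol and a mean of at least 1 cRPKM. The difference was 0.28 for Fos, a subunit of AP-1, followed by 0.62 for Klf4, 0.87 for Nr4a1, 1.0 for Junb and 1.1 for Ccn1. Pearson's r with Npas4 was 0.96 to 1.0 for these 5, as a description over 6 libraries that share treatment and depth. Their steps between the times were also measured. At 3 h against 0.5 h, Klf4 and Nr4a1 were called higher (1.57 ± 0.22 and 0.98 ± 0.14, both with adjusted p = 0.017, edgeR), Fos had 0.50 ± 0.16 (adjusted p = 0.1; 0.036 with the block), Junb 0.33 ± 0.35 (adjusted p = 0.56) and Ccn1 0.02 ± 0.21 (adjusted p = 0.96). Junb shares with Npas4 the lower level in 3 h replicate 2, with 175 and 92.4 cRPKM in the 3 h libraries, whereas Klf4 had 24.2 and 36.8 cRPKM there. The genes nearest to Arnt were Slc7a6os, Tmem161b and Timm22, at 0.026 to 0.03.

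**Figure D5:**
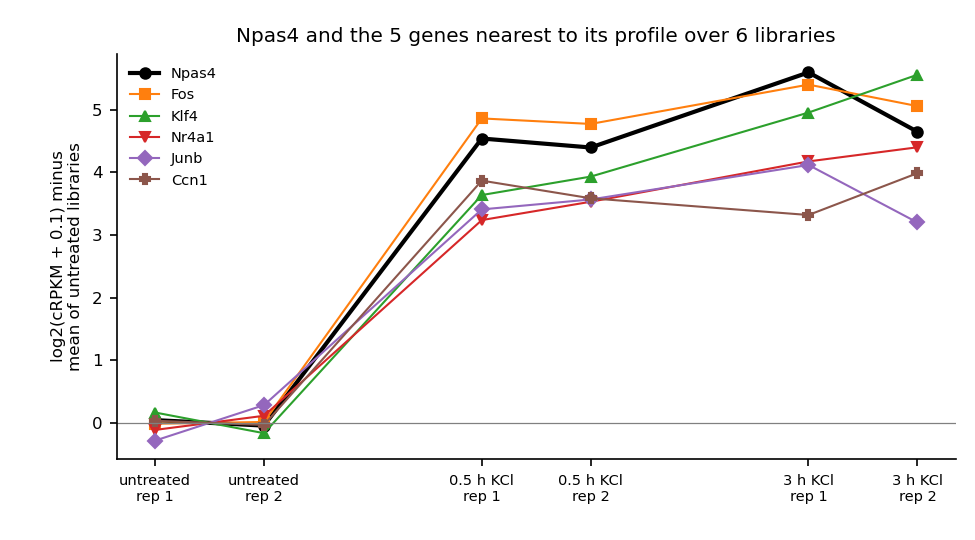
Log2(cRPKM + 0.1) minus the mean of the untreated libraries (vertical axis) in each of the 6 libraries (horizontal axis) for Npas4, drawn in black, and the 5 genes nearest to it. All 6 genes lie above their untreated mean in every treated library. Fos runs closest at a root mean square difference of 0.28, and Npas4, Junb and Fos are lower in 3 h replicate 2 than in replicate 1 while Klf4, Nr4a1 and Ccn1 are higher.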

How the data were processed

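RNA was sequenced from 6 libraries, 2 in each of 3 groups, made per the labels with TriReagent and the TruSeq RNA library kit v2. The submitters' processing notes name Bowtie and the genome build mm9. The version and gene models, not given in the sources used here, could not be checked. The deposited tables each list 22667 genes with 2 values by the authors, a cRPKM (an RPKM, whose gene length the labels do not define) and a whole-number read count without normalization. Of these genes 21553 have values, and 20451 matched a symbol by Ensembl identifier in GENCODE M21. Promoters are from RefSeq, build GRCm38.p6 (20 of 27 genes looked up matched).

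The test was edgeR's quasi-likelihood F test on counts (edgeR 4.0.16, R 4.3.3), with TMM scaling and a minimum count of 10 in filterByExpr, which kept 15895 genes. The 6 libraries entered 1 model of the 3 groups, with 3 residual degrees of freedom. The SE is the log2 fold change divided by the square root of F. Calls are at a Benjamini-Hochberg adjusted p under 0.05 over all genes. Alternatives used DESeq2 1.42.0, limma 3.58.1 on log2(cRPKM + 1) and log2(cRPKM + 0.1), other scalings and filters, 2-group fits and each library left out. The fit was tested on simulated data. Replicate differences correlated across genes with r = 0.805, 0.577 and 0.613 between the 3 pairs of groups. Same-numbered libraries were therefore read as paired, on the evidence of the data alone. The main fit does not use this pairing. The fit with the block is an alternative, given for some of the named genes whose call it changes. The members and gene lists were chosen with earlier results of these data known. Named genes are the 5 members, called bHLH-PAS and PAS genes, the described targets, other family genes of highest level, up to 4 genes of each further list by adjusted p at 3 h, and the nearest genes by profile. Gfap and Olig1 were named after their values were seen.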

Additional observations from a re-analysis of the deposited data

Results flagged for a closer look

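For several of the genes named, the effect of KCl at 3 h differed from that at 0.5 h, by the test of 3 h against 0.5 h (edgeR, adjusted p under 0.05). Among bHLH-PAS genes the log2 difference was −0.67 ± 0.10 for Npas2, 0.63 ± 0.11 for Clock, 0.72 ± 0.10 for Arntl and −2.06 ± 0.23 for Hif3a, and among period genes 1.27 ± 0.20 for Per1 and 1.24 ± 0.18 for Per2. Among described targets of NPAS4 it was 2.44 ± 0.34 for Bdnf, 1.48 ± 0.09 for Nptx2, 1.1 ± 0.16 for Plk2 and 0.48 ± 0.09 for Mdm2. In the further lists it was 1.23 ± 0.20 for Slc2a1, 1.5 ± 0.12 for Tiparp, 0.63 ± 0.13 for Srf, 0.68 ± 0.12 for Hdac4 and −0.52 ± 0.10 for Crtc1. Of the genes nearest to Npas4 in profile, Klf4 had 1.57 ± 0.22 and Nr4a1 0.98 ± 0.14.

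Fits without either 0.5 h library leave a lone library in that group. Every gene lost its call there, so the loss of the call by these genes says nothing about them. Npas2, Clock, Mdm2, Srf, Hdac4 and Crtc1 also lost it without either untreated library (adjusted p 0.052 to 0.084) and in a fit of the 2 groups alone (0.051 to 0.084). Clock, Mdm2 and Hdac4 lost it when scaled by library totals (0.05 to 0.053) and in limma (0.061 to 0.067). Mdm2, Slc2a1, Hdac4 and Crtc1 lost it without 3 h replicate 2 (0.055 to 0.07). Over all alternatives of the genes in these 3 sentences the adjusted p ran from 2.3e-07, for Npas2, to 0.21, for Crtc1.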

How the results depend on the processing

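For Npas4 at 0.5 h the log2 change of 4.48 passed the threshold with library totals (4.50), DESeq2 (4.48), limma on log2(cRPKM + 0.1) (4.47), no filter (4.47), the stricter filter (4.48), the replicate block (4.47) and 2 groups alone (4.48). With a library left out it ran from 4.38 to 4.56. At 3 h it ran from 4.69 to 5.73, and between the times from 0.21 to 1.26, where DESeq2 also passed (0.83). Arnt at 3 h lost its call with library totals (0.35), limma (0.31 and 0.34), no filter (0.41) and 2 groups alone (0.42), and ran from 0.33 to 0.48 with a library left out. Values near 0 changed sign with 1 library left out. At 0.5 h Arnt2 ran from −0.18 to 0.05 (0.01 without untreated replicate 1), Npas1 from −0.32 to 0.11 (0.07 without 0.5 h replicate 1) and Npas3 from −0.10 to 0.15 (−0.09 without untreated replicate 2). Between the times Arnt2 ran from −0.25 to 0.05 (0.03 without 0.5 h replicate 1). The cause was not tested. The replicate block changed no other call of the 5 genes.

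The number of genes called was 6 at 0.5 h, 2472 at 3 h and 1789 between the times. DESeq2 called 37, 4136 and 3535, and the fit with the block 13, 5918 and 4961. At 0.5 h limma on log2(cRPKM + 0.1) called 10 and no filter 13. Fits of 2 groups alone called 1067 at 3 h and 471 between the times. With a library left out the counts ran from 0 to 6, 38 to 3739 and 0 to 2915. The calls were 1384 higher and 1088 lower at 3 h, and with library totals 1115 and 1340. Between the times they were 1015 higher and 774 lower, and with library totals 762 and 1037. Leaving out a library leaves 2 residual degrees of freedom, and a lone library is then assumed to vary like the other groups. The least abundant member, Npas1, had 274 counts in its lowest library, 3 h replicate 2, which is also the library of fewest counts. The part of depth in its value was not tested.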
